A study of Mus musculus with 15 samples.

Results

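The 10 genes described here mark dendritic cells or direct their development: *Batf3*, *Irf8*, *Irf4* and *Zbtb46*, which encode transcription factors, *Clec9a*, *Xcr1*, *Flt3*, *Itgax* and *Ccr7*, which encode surface receptors, and *Siglech*, a marker of plasmacytoid dendritic cells. They were chosen by symbol, and all 10 were present among the 18279 genes of the table. Bulk RNA was sequenced from 15 subcutaneous tumors of Renca, a renal carcinoma cell line of BALB/c origin, grown in female BALB/c mice that were 4 to 6 weeks old when bought. There were 5 control tumors (numbered 1 to 5), 5 tumors of *Pbrm1* KO clone 4 (numbered 6 to 10) and 5 of *Pbrm1* KO clone 18 (numbered 11 to 15). *Pbrm1* encodes a subunit of the SWI/SNF chromatin remodeling complex, and the knockouts were made with transiently expressed Cas9. The sample labels call the control tumors parental Renca, the study's methods call them control knockout. The mice were immunocompetent. The labels say that mice went untreated or received PD-1 antibody, and do not say which mice gave these tumors. Each group was grown from 1 cell line, so a difference of genotype and a difference between lines cannot be told apart, and the comparisons of clone 4 and of clone 18 with control share the same 5 control tumors. Nothing in the labels says how the tumors of a group relate beyond the cell line, so p values measure the spread between these tumors.

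Dendritic cells take up antigen, carry it to lymph nodes and present it to T cells. Conventional type 1 dendritic cells (cDC1) depend on IRF8 and BATF3, bear XCR1 and CLEC9A and are known for presenting antigen of dying cells to CD8 T cells. Type 2 cells (cDC2) rely more on IRF4, plasmacytoid cells produce type I interferon, and mature dendritic cells of any kind gain CCR7, which guides them along lymphatic vessels. In a tumor that contains many macrophages, *Itgax* and *Irf8* are also read from other myeloid cells and B cells.

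The values are normalized counts, that is, reads per gene divided by a size factor for each tumor. Differences are knockout minus control on the scale log2(normalized count + 1), with the standard error (SE) and the Benjamini-Hochberg adjusted p of limma, a linear model fitted across 18250 genes, and a gene is called changed at an adjusted p under 0.05. Gene reads numbered 40860659 in the median tumor, 32924414 in the shallowest and 49099168 in the deepest. *Pbrm1* itself ranged from 7451.5 to 9871 in the control tumors and from 2484 to 3138 in the knockout tumors, without overlap. The epithelial keratin genes *Krt8* and *Krt18* and the renal factor *Pax8* were abundant in each tumor.

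In the 10 knockout tumors, 2 of the 10 dendritic cell genes were lower than in control and 0 were higher. *Irf8* fell to 74.8% of its control mean and *Clec9a* to 37.0%. The share of genes called among all 18250 tested was 22.1%, and 12.9% were called lower, so that the 2 calls (20%) lay near the background. By the unadjusted p, the same 2 genes were under 0.05, and edgeR and DESeq2 also called 2 each. Of all genes limma called 4040, and 9 alternative fits, edgeR and DESeq2 among them, called 3739 to 4615. The log2 differences ran from -1.42 for *Clec9a* to 0.54 for *Ccr7*, 7 of the 10 were negative, and their median was -0.35, against -0.02 over all genes. In bulk RNA, fewer cells of a type and less RNA per cell cannot be told apart.

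The lowest differences were those of *Clec9a*, which was called, and of *Xcr1* (-0.84) and *Siglech* (-0.76), which were not. *Itgax* (0.21), *Irf4* (0.18) and *Ccr7* (0.54) had positive differences, none of them called, and differences between genes were not tested. No gene separated the genotypes fully. All 10 knockout tumors lay below every control tumor for 0 of the 10 genes (4.87% of all genes) and above every control tumor for 0 of the 10 (3.11% of all genes).

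**Figure D1:**
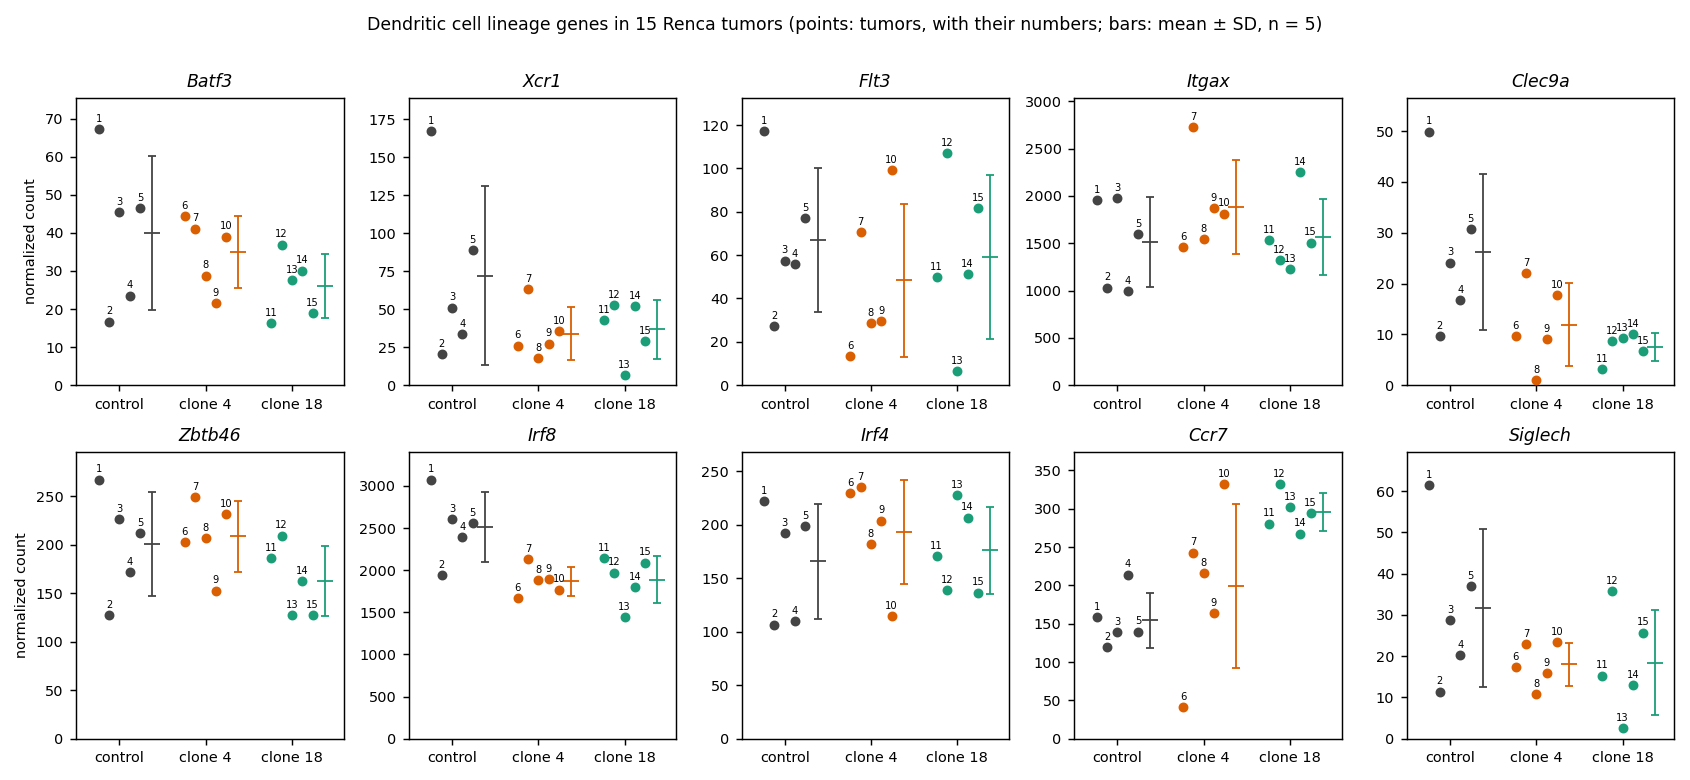
Normalized count of each of the 10 dendritic cell genes in the 15 tumors, by group, with axes that start at 0; points are tumors with their numbers and bars are the mean ± SD of 5 tumors. For *Irf8* 6 of the 10 knockout tumors lie below the lowest control tumor, and for *Ccr7* the 5 clone 18 tumors lie above all 5 control tumors.

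*Irf8* encodes an interferon regulatory factor required for cDC1 and plasmacytoid cells, and macrophages and B cells also use it. In control tumors 1 to 5 its normalized counts were 3074, 1938, 2604, 2389 and 2559, in the clone 4 tumors (6 to 10) they were 1670.2, 2134, 1880.0, 1898 and 1770.1, and in the clone 18 tumors (11 to 15) they were 2140.0, 1971, 1445, 1798 and 2089. The ranges overlapped because control tumor 2 was the lowest control, and 6 of 10 knockout tumors lay below it. The mean was 2513 ± 409.8 in control, 1870.0 ± 174 in clone 4 and 1889 ± 281 in clone 18 (SD, n = 5 in each group), and the difference of the 10 knockout tumors was -0.41 (SE 0.10, adjusted p = 0.00673, limma). It was nearly equal in each clone, -0.42 (SE 0.12, adjusted p = 0.0216, limma) in clone 4 and -0.41 (SE 0.12, adjusted p = 0.017, limma) in clone 18. Among the 10 genes *Irf8* was the 1 called in clone 4, where 16.8% of all genes were called, and the 1 called in clone 18, where 24.7% were. With control tumor 1 left out, the clone 4 difference was -0.34 (adjusted p = 0.0596, limma) and the clone 18 difference -0.33 (adjusted p = 0.05, limma). Leaving out tumor 6 also took the clone 4 difference past the threshold (-0.38, adjusted p = 0.0565, limma). The difference of all knockout tumors kept its call with each tumor left out in turn. With a test per gene that allows unequal variances, no *Irf8* call was kept (adjusted p = 0.0606 for all knockout tumors, 0.0838 for clone 4 and 0.1 for clone 18).

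*Irf8* lies on chromosome 8, bases 120736358 to 120756694 of GRCm38, on the plus strand. Promoters were searched on both strands for TTCNNNGAA, the element shared by the STAT family, and for 4 other motifs: GGAANNGAA (ETS and IRF composite), GAAANNGAA (IRF), TGANTCA (AP-1) and GAGGAA (ETS core). The windows are the 250 bases before a gene's start in RefSeq GRCm38.p6, which is the mm10 build of the reads, and 9 of the 10 genes matched an entry, all but *Ccr7*. RefSeq starts can differ from the gene bounds given here. The 4 below are the promoters of the 2 genes called and of the 2 other genes with a STAT element. Capitals mark a STAT element or, as the second capital run of *Batf3*, an ETS core.
Irf8 (chr8:120736108-120736357, plus strand): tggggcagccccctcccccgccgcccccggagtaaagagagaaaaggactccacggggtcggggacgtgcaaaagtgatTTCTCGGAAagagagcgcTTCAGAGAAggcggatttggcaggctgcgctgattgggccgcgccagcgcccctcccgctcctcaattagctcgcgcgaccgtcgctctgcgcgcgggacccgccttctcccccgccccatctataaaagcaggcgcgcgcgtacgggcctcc
Clec9a (chr6:129408612-129408861, plus strand): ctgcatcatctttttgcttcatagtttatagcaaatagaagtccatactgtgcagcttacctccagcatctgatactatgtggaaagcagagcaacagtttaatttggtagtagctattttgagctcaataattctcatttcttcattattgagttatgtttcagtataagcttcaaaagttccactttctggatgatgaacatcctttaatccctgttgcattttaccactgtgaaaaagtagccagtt
Batf3 (chr1:191098164-191098413, plus strand): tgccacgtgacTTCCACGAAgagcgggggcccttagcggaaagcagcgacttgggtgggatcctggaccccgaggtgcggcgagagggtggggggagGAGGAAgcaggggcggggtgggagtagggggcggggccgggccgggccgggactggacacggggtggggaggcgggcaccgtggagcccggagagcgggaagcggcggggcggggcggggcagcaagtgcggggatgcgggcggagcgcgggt
Siglech (chr7:55767934-55768183, plus strand): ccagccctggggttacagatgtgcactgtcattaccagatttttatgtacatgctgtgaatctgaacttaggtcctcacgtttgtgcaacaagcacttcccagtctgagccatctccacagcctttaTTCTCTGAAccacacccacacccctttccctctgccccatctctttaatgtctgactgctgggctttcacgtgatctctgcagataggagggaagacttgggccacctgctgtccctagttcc
RefSeq lists a second *Irf8* promoter (chr8:120738389-120738638, plus strand), which held 0 of the 5 motifs. The first *Irf8* window held 2 STAT elements, from 171 to 163 and from 153 to 145 bases before the start. *Batf3* and *Siglech* held 1 each, and *Clec9a* held 0 of the 5 motifs. Of all 32851 promoter windows, 7.02% held the STAT element, 6.99% the ETS and IRF composite, 7.13% the IRF motif, 6.75% the AP-1 motif and 23.3% the ETS core. The AP-1 motif stood in *Itgax* and *Zbtb46* and an ETS core in *Irf4*, while *Xcr1* and *Flt3* held 0 of the 5 motifs. A match describes the letters of a window and not a bound site.

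*Batf3* encodes the AP-1 family factor that sustains *Irf8* in cDC1. It stood at 67.3, 16.7, 45.4, 23.5 and 46.5 in control, at 44.4, 41.1, 28.8, 21.6 and 39.0 in clone 4 and at 16.3, 36.9, 27.5, 30.1 and 19.0 in clone 18. The groups overlapped widely, and the control tumors alone spanned nearly the whole range. The difference of the knockout tumors was -0.28 (SE 0.32, adjusted p = 0.577, limma), and ran from -0.55 without tumor 2 to -0.06 without tumor 1.

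*Zbtb46* encodes a zinc finger factor typical of conventional dendritic cells and also read in endothelium. Its counts were 267, 128, 226, 171 and 212 in control, 203, 249, 207, 153 and 232 in clone 4 and 186, 209, 127, 162 and 128 in clone 18. Apart from tumor 13 (127.0) and tumor 15 (127.6), which lay just under the lowest control tumor, all knockout tumors lay within the control range. The difference was -0.11 (SE 0.19, adjusted p = 0.75, limma).

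*Irf4* encodes the factor used by cDC2, mature dendritic cells and plasma cells. It stood at 222, 107, 192, 109.8 and 199 in control, at 229.5, 235, 182, 204 and 115 in clone 4 and at 170.4, 139, 228, 207 and 137 in clone 18. In control the values formed a low pair (tumors 2 and 4) and 3 high tumors, and all groups overlapped. The difference was positive and not called, 0.18 (SE 0.21, adjusted p = 0.593, limma), and ran from 0.04 without tumor 2 to 0.30 without tumor 1.

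*Clec9a* encodes the receptor with which cDC1 sense actin of dead cells. Its normalized counts were 49.9, 9.7, 24.1, 16.8 and 30.7 in control, 9.6, 22.0, 1.0, 9.1 and 17.8 in clone 4 and 3.1, 8.6, 9.2, 10.0 and 6.7 in clone 18. Of the knockout tumors 7 lay below the lowest control tumor, again tumor 2, and tumor 7 with 22.0 lay among the middle controls. These values rest on few reads, between 11 and 43 in a control tumor and between 1 and 23 in a knockout tumor. The difference was -1.42 (SE 0.49, adjusted p = 0.0454, limma), with -1.28 (SE 0.58, adjusted p = 0.146, limma) in clone 4 and -1.57 (SE 0.58, adjusted p = 0.0556, limma) in clone 18. The call was kept only in the fits without tumor 2, 7 or 10, and in the other 12 fits that left out 1 tumor the adjusted p of limma was 0.0503 to 0.142, the latter without control tumor 1 (log2 difference -1.15). Some exons of *Clec9a* (chromosome 6, bases 129408862 to 129424763 of GRCm38, plus strand) overlap exons of *Clec1b* on the same strand, so reads of the shared part cannot be assigned with certainty.

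*Xcr1* encodes the receptor for the chemokine XCL1 and is confined, among dendritic cells, to cDC1. It stood at 167, 20.3, 51.0, 33.6 and 88.8 in control, at 26.0, 63.1, 17.9, 27.3 and 35.6 in clone 4 and at 42.9, 52.9, 6.5, 52.1 and 29.1 in clone 18. All 10 knockout tumors lay below the control mean of 72.2, but only 2 below the lowest control tumor, and control tumor 1 alone was far above the rest. The average over the knockout tumors came to 49.0% of the control average, and the difference was not called, -0.84 (SE 0.49, adjusted p = 0.24, limma). Without control tumor 1 it was -0.45 (adjusted p = 0.58, limma), and without tumor 2 -1.20 (adjusted p = 0.105, limma).

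*Flt3* encodes the receptor for FLT3 ligand, the growth factor on which dendritic cell numbers depend. The counts were 117, 27.3, 57.5, 56.0 and 77.2 in control, 13.5, 70.7, 28.8, 29.6 and 99.1 in clone 4 and 50.0, 107, 6.5, 51.1 and 81.7 in clone 18. Each knockout group held tumors near the highest control and tumors below the lowest, down to 6.5 in tumor 13. The difference was -0.55 (SE 0.54, adjusted p = 0.521, limma), and ran from -0.83 without tumor 2 to -0.27 without tumor 13.

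*Siglech* encodes a sialic acid binding lectin of plasmacytoid cells. It stood at 61.5, 11.4, 28.7, 20.2 and 37.0 in control, at 17.4, 22.9, 10.9, 15.9 and 23.4 in clone 4 and at 15.3, 35.7, 2.6, 13.0 and 25.7 in clone 18. The average over the knockout tumors came to 57.6% of that of the controls, yet 8 of 10 knockout tumors lay within the control range, and the difference was not called, -0.76 (SE 0.46, adjusted p = 0.259, limma). It ran from -1.06 without tumor 2 to -0.48 without tumor 1.

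*Itgax* encodes the integrin CD11c, present on dendritic cells and on many macrophages. Its counts were 1956, 1031, 1974, 997 and 1596 in control, 1462, 2724, 1545, 1869 and 1814 in clone 4 and 1532, 1325, 1230.4, 2254 and 1507 in clone 18. No knockout tumor lay below the control range and 2 lay above it, tumors 7 and 14. The difference was 0.21 (SE 0.19, adjusted p = 0.469, limma), and ran from 0.08 without tumor 4 to 0.33 without tumor 3.

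*Ccr7* encodes the homing receptor of mature dendritic cells and of naive and central memory T cells. It stood at 159, 119.8, 139, 214 and 139.6 in control, at 41.5, 243, 216, 164 and 332 in clone 4 and at 281, 332, 302, 268 and 294 in clone 18. All 5 clone 18 tumors lay above every control tumor, which 7.24% of all genes did, and clone 4 held both the lowest tumor of the series (tumor 6) and, beside tumor 12, the highest (tumor 10). The difference was 0.54 (SE 0.37, adjusted p = 0.327, limma) for all knockout tumors, 0.12 (SE 0.38, adjusted p = 0.882, limma) for clone 4 and 0.96 (SE 0.38, adjusted p = 0.0754, limma) for clone 18. Among the limma fits that left out 1 tumor, only those without tumor 6 called *Ccr7*. With it left out, the difference was 0.80 for all knockout tumors (adjusted p = 0.00323, limma), 0.61 for clone 4 (adjusted p = 0.0455, limma) and 0.96 for clone 18 (adjusted p = 0.00118, limma), where tumor 6 enters only through the spread shared by the groups. With tumor 6 kept, the clone 18 difference was called by edgeR (0.96, adjusted p = 0.0424) and by DESeq2 (0.95, adjusted p = 0.0141). It was also called after quantile normalization (1.014, adjusted p = 0.0417, limma) and by the unequal variance test (0.957, adjusted p = 0.0178). The clone 4 difference turned negative without tumor 7 (-0.022) or tumor 10 (-0.135). *Ccr7* lies on chromosome 11, bases 99144196 to 99155077 of GRCm38, on the minus strand.

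**Figure D2:**
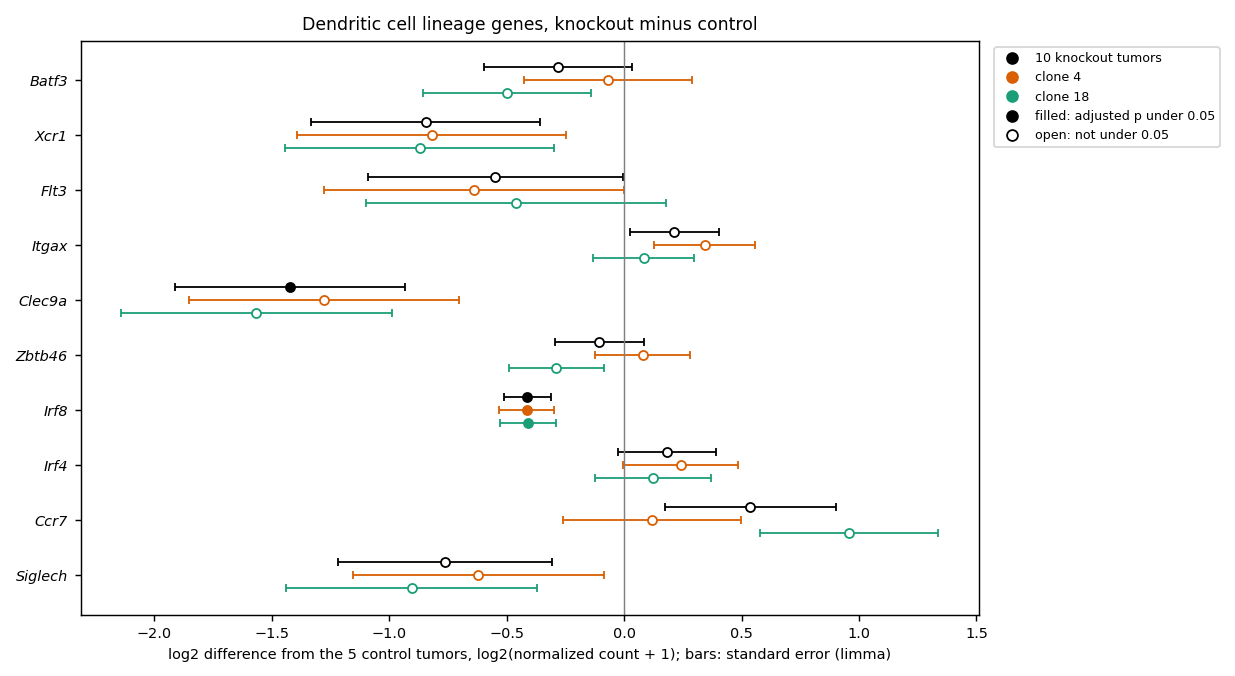
Difference from the 5 control tumors on the log2(normalized count + 1) scale for each gene, with bars of 1 standard error of limma, for the 10 knockout tumors and for each clone; filled points have an adjusted p under 0.05. The 3 filled points of *Irf8* lie at -0.41 to -0.42, *Clec9a* is filled for the 10 knockout tumors alone, and *Ccr7* lies at 0.12 in clone 4 and 0.96 in clone 18.

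Between the clones, 0 of the 10 genes were called by limma, edgeR or DESeq2, where limma called 4.62% of all genes. By the unadjusted p 1 was under 0.05, *Ccr7*, with a difference of clone 18 minus clone 4 of 0.84 (adjusted p = 0.246, limma). The median of the 10 differences was -0.19, and the smallest in size was that of *Irf8*, 0.01 (adjusted p = 0.993, limma).

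Per kilobase of exon, the control tumors gave the following order of levels. *Irf8* led with 356 ± 58.1 normalized counts per kilobase (SD, n = 5), followed by *Itgax* with 315 ± 99.5, which overlapped within the SD. *Ccr7* came next with 78.0 ± 18.3 and *Irf4* with 33.8 ± 11.0, each apart from its neighbours above. *Irf4*, *Batf3* (25.0 ± 12.7), *Zbtb46* (23.6 ± 6.26), *Xcr1* (16.2 ± 13.3), *Flt3* (10.9 ± 5.38), *Siglech* (9.39 ± 5.67) and *Clec9a* (7.97 ± 4.67) each overlapped the next within the SD. The genes most particular to cDC1 and to plasmacytoid cells thus stood at the low end in these tumors.

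The control tumors differed widely among themselves. Control tumor 1 was the highest control in 8 of the 10 genes and tumor 2 the lowest in 9. The leukocyte level, the mean log2(normalized count + 1) of 10 genes of all white blood cells such as *Ptprc*, which encodes CD45, also put these tumors first and last among the controls, with 11.27 in tumor 1 and 10.51 in tumor 2. In clone 4, tumor 7 was highest in 6 genes, although its leukocyte level of 10.60 was only the fourth of 5. In clone 18, tumor 12 was highest in 6 genes and had the highest leukocyte level of its group, 10.71, and tumor 13 was lowest in 6 (*Xcr1*, *Flt3*, *Itgax*, *Zbtb46*, *Irf8* and *Siglech*).

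**Figure D3:**
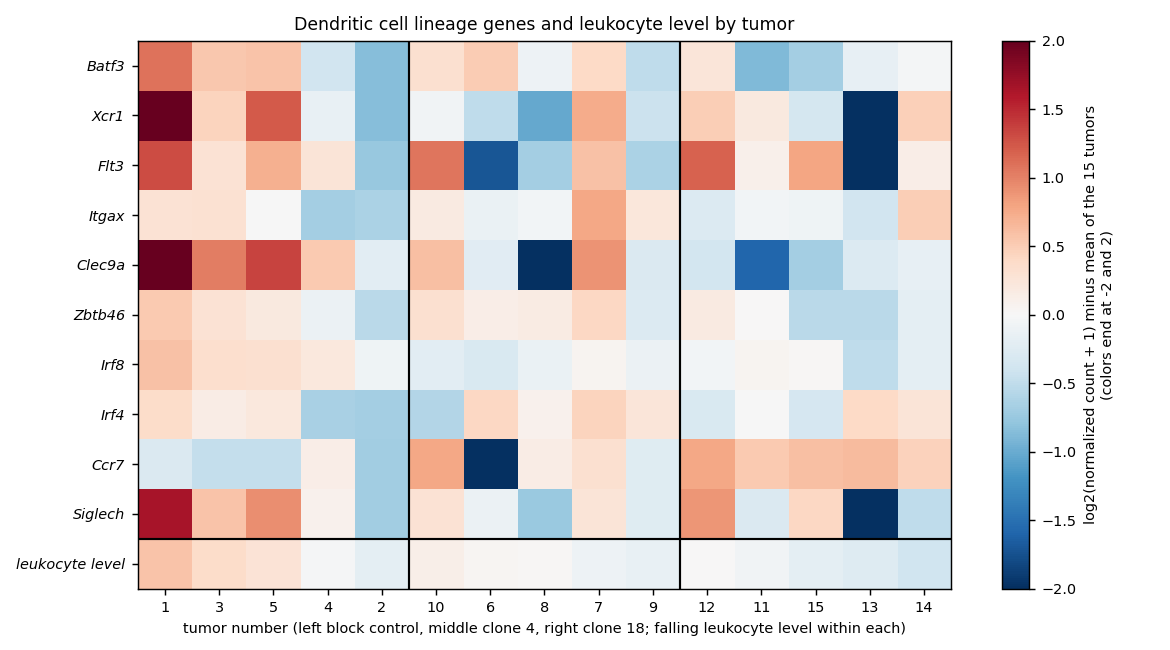
log2(normalized count + 1) of the 10 genes and the leukocyte level in each tumor, minus the mean of the 15 tumors; tumors are ordered within each group by falling leukocyte level, and colors end at -2 and 2. Tumor 1 is high and tumor 2 low in most rows of the control block, tumor 13 is low in *Xcr1*, *Flt3* and *Siglech*, and tumor 6 is low in *Ccr7*.

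With values centred within each group, the genes mostly varied together over the 15 tumors, whose depth and leukocyte level also varied. Pearson's r of the 45 pairs ran from -0.37 to 0.88 with a median of 0.49, and 41 were positive. The highest was 0.88 (*Xcr1* and *Siglech*, and *Flt3* and *Siglech*), and the lowest was that of *Irf4* and *Ccr7*. With the leukocyte level, r was 0.79 for *Zbtb46*, 0.70 for *Batf3*, 0.63 for *Siglech*, 0.62 for *Irf8*, 0.55 for *Xcr1* and 0.44 for *Flt3*. It was 0.33 for *Itgax*, 0.30 for *Irf4*, 0.29 for *Clec9a* and 0.04 for *Ccr7*.

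Among the 16494 genes that averaged 10 normalized counts or more, the gene closest to *Ccr7* by the same r over 15 tumors was *Ccl22* (0.95), which encodes a chemokine made by mature dendritic cells, and then *Gna14* and *Gm37800*. *Ccl22* stood at 25.1 in tumor 6, the lowest of the series as for *Ccr7*, and at 249.5 in tumor 10, the highest. The *Ccl22* mean was 128 ± 36.3 in control and 125 ± 29.6 in clone 18 (SD, n = 5), with a clone 18 difference of -0.02 (SE 0.43, adjusted p = 0.983, limma). The closest to *Xcr1* were *Tnfsf10* (0.94), which encodes the death ligand TRAIL, *Hrh2* and *Arrdc4*, and to *Flt3* they were *Tnik* (0.95), *Cd96* and *Ikzf3*. *Batf3* was closest to *Themis2* (0.92), *Syk* and *Arhgap30*, and *Irf8* to *Zeb2os* (0.92), *Gm5150* and *Lair1*. *Zbtb46* was closest to *Pik3ap1* (0.93), *Vegfc* and *Lbh*, and *Itgax* to *Icosl* (0.91), *Olfml2a* and *Cygb*. *Siglech* was closest to *Zfp445* (0.93), *Timd4* and *Usp45*, *Irf4* to *Dgkq* (0.89), *Kank4* and *Tyk2*, and *Clec9a* to *Dnah8* (0.89), *G730003C15Rik* and *Cul9*. These are the highest of 16494 values for each gene and carry no test.

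The leukocyte level itself was 10.90 ± 0.30 in control, 10.69 ± 0.11 in clone 4 and 10.52 ± 0.16 in clone 18 (SD, n = 5), with ranges of 10.51 to 11.27, 10.55 to 10.82 and 10.30 to 10.71. To place the dendritic cell genes beside the white blood cells of the same tumor, the fit was repeated with this level taken off each tumor. That moved the median difference of all genes to 0.28 and the share of genes called to 28.2%. On this scale 1 of the 10 genes was called, *Itgax*, with a higher difference of 0.51 (SE 0.18, adjusted p = 0.035, limma), and 0 were called lower. edgeR called *Itgax* and *Ccr7*, and DESeq2 these and *Irf4*, all higher. Of all genes limma called 5138 on this scale, and 9 alternative fits, edgeR and DESeq2 among them, called 1728 to 5592. The *Irf8* difference was -0.11 (SE 0.12, adjusted p = 0.469, limma) and that of *Clec9a* -1.12 (SE 0.46, adjusted p = 0.0695, limma). *Xcr1* gave -0.55 (SE 0.42, adjusted p = 0.329, limma) and *Siglech* -0.47 (SE 0.40, adjusted p = 0.382, limma), whereas *Ccr7* gave 0.84 (SE 0.37, adjusted p = 0.0866, limma), and 1.11 without tumor 6 (adjusted p = 0.000714, limma). The *Itgax* call was lost in 6 of the 15 limma fits that left out 1 tumor, namely tumor 1, 4, 5, 7, 9 or 14, with adjusted p of 0.0534 to 0.0824, and relative to *Ptprc* alone (adjusted p = 0.146, limma). The median of the 10 genes was -0.05, with 5 negative and 5 positive.

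Other genes of dendritic cells were followed in lists of known markers, whose counts are to be read beside the 22.1% of all genes called and the 12.9% called lower. Of 10 other cDC1 genes 1 rose and 1 fell, with a list median of -0.21. *Cadm1*, an adhesion molecule of cDC1 that epithelium also makes, fell by 0.67 on the log2 scale (SE 0.21, adjusted p = 0.0285, limma), from 455 to 1021 in control to 490 to 593 in clone 4 and 276 to 418 in clone 18. *Tlr3*, the receptor for double-stranded RNA, rose by 0.22 (SE 0.07, adjusted p = 0.0425, limma). Without tumor 1, 3 or 5 the *Cadm1* call was lost (adjusted p 0.0685 to 0.099), and that of *Tlr3* was lost in 11 of the 15 such fits. By clone, *Cadm1* was called in clone 18 (-0.979, adjusted p = 0.00132, limma) and not in clone 4 (-0.35, adjusted p = 0.242, limma). *Rab7b* of this list was called higher in clone 18 than in control (0.214, adjusted p = 0.0409, limma) and than in clone 4 (0.262, adjusted p = 0.0499, limma). The table held 5 cDC2 genes, and 1 of them fell, *Clec10a*, a lectin shared with macrophages, and the list median was 0.06. Its difference was -0.63 (SE 0.22, adjusted p = 0.0491, limma), and the call was lost in 13 of the 15 fits. It was also lost in 7 of the 9 alternative fits, among them edgeR (adjusted p = 0.0919) and DESeq2 (adjusted p = 0.0523). Each of these 2 tools called 1 other gene of the list. The other cDC2 genes had positive differences, none of them called by limma: *Cd209a* (0.433), *Esam* (0.235), *Sirpa* (0.057) and *Mgl2* (0.042). In clone 18 *Esam* was called higher (0.278, adjusted p = 0.0461, limma), and which cells of the tumor gave its reads was not tested. *Clec4a4* was not listed.

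Of 12 other plasmacytoid genes 3 fell and 0 rose, beside 12.9% of all genes called lower, with a list median of -0.41 and 2 to 4 genes called when 1 tumor was left out. *Tlr7*, the endosomal receptor for single-stranded RNA, ranged from 589 to 779.9 in control, 280.0 to 548 in clone 4 and 279 to 422 in clone 18, so that no knockout tumor reached the control range. Its difference was -0.86 (SE 0.15, adjusted p = 0.000408, limma). *Cox6a2*, a subunit of cytochrome c oxidase found in muscle and plasmacytoid cells, ranged from 32.5 to 103 in control, 4.8 to 13.5 in clone 4 and 4.9 to 34.7 in clone 18. It fell by 1.95 (SE 0.40, adjusted p = 0.00182, limma), and among the controls it was highest in tumor 2, where *Siglech* was lowest. The third was *Pld4*, a nuclease also of macrophages, with a difference of -0.53 (SE 0.16, adjusted p = 0.0234, limma). The *Pld4* call was lost without tumor 1, 3 or 5 (adjusted p 0.0658 to 0.0796). Of the 12 differences 11 were negative, among them *Tcf4* (-0.028), *Irf7* (-0.047) and *Bst2* (-0.065), which were not called. *Spib* had a positive one (0.327, adjusted p = 0.522, limma). In clone 18 *Spib* was called higher (0.834, adjusted p = 0.0466, limma), and 4 genes of the list were called lower.

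Mature dendritic cells were represented by 12 other genes, of which 2 fell and 1 rose, with a list median of -0.14. Negative differences numbered 9 of 12. The 9 genes not called were *Fscn1* (-0.085), *Ccl22* (-0.118), *Ccl17* (0.039), *Il12b* (-0.665), *Cd83* (-0.042), *Cd86* (-0.155), *Socs2* (0.011), *Il4i1* (-0.377) and *Samsn1* (-0.274). *Cd40*, the receptor by which T cells license dendritic cells and which B cells and macrophages also bear, ranged from 1198 to 1828 in control, 829 to 963 in clone 4 and 598 to 683 in clone 18. The 3 groups did not overlap. Its difference was -1.02 (SE 0.13, adjusted p = 2.77e-05, limma), and clone 18 was lower than clone 4 by 0.50 on the log2 scale (adjusted p = 0.00325, limma). *Cacnb3*, a calcium channel subunit, fell to 1201.5 to 1505 in clone 4 against 2159 to 2424 in control, and stood at 1693 to 2233 in clone 18. The difference of the knockout tumors was -0.50 (SE 0.13, adjusted p = 0.0107, limma), with -0.77 in clone 4 and -0.23 in clone 18, and the clones differed by 0.54 (adjusted p = 0.000401, limma). *Nudt17*, a hydrolase of the Nudix family, rose in all knockout tumors, from 152 to 207 in control to 319 to 476, with a difference of 1.05 (SE 0.10, adjusted p = 1.83e-06, limma).

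The signals that draw or sustain dendritic cells gave 12 genes in the table, and *Ccl19* and *Ccl21a* were not among them. Their median difference was -0.05, 2 fell and 1 rose, and negative differences numbered 6 of 12. In clone 18 the receptor gene *Csf2rb* was called higher (0.278, adjusted p = 0.0345, limma), and 2 genes of the list were called lower. *Xcl1*, the ligand of XCR1 made by natural killer and CD8 T cells, stood at 77.8, 8.8, 19.5, 30.3 and 25.4 in control, at 4.8, 7.6, 3.0, 6.8 and 7.8 in clone 4 and at 3.1, 2.5, 6.5, 2.0 and 9.0 in clone 18. Of the knockout tumors 9 lay below the lowest control, and tumor 15 just above it. It fell by 2.19 on the log2 scale (SE 0.43, adjusted p = 0.00134, limma), to 16.4% of the control mean, and the call was kept with each tumor left out in turn. Exons of the antisense gene *Gm20743* overlap those of *Xcl1*, and the reads were not stated to be counted by strand. The growth factors did not pass the test: *Flt3l*, the FLT3 ligand, ranged from 244 to 340 in control and 273 to 372 in the knockout tumors, with a difference of 0.08 (SE 0.10, adjusted p = 0.623, limma). *Csf2*, which encodes GM-CSF, ranged from 30.6 to 87.4 in control and 36.3 to 96.9 in the knockout tumors, with a difference of 0.09 (SE 0.25, adjusted p = 0.84, limma). Exons of *Flt3l* overlap those of *Gm45713* on the same strand, and exons of *Csf2* those of *Gm12223* on the other strand. *Ccr2*, the receptor that brings monocytes to tissue, gave -0.54 (SE 0.19, adjusted p = 0.0475, limma), a call lost in 10 of the 15 fits that left out 1 tumor. The gene that rose was *Ccl20*, the ligand of CCR6, with 0 reads in each control tumor and 0 to 9 in the knockout tumors, too few for a fold. Its call was lost in 13 of the 15 fits that left out 1 tumor (adjusted p up to 0.0874, limma) and with a pseudocount of 5 (adjusted p = 0.111, limma).

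**Figure D4:**
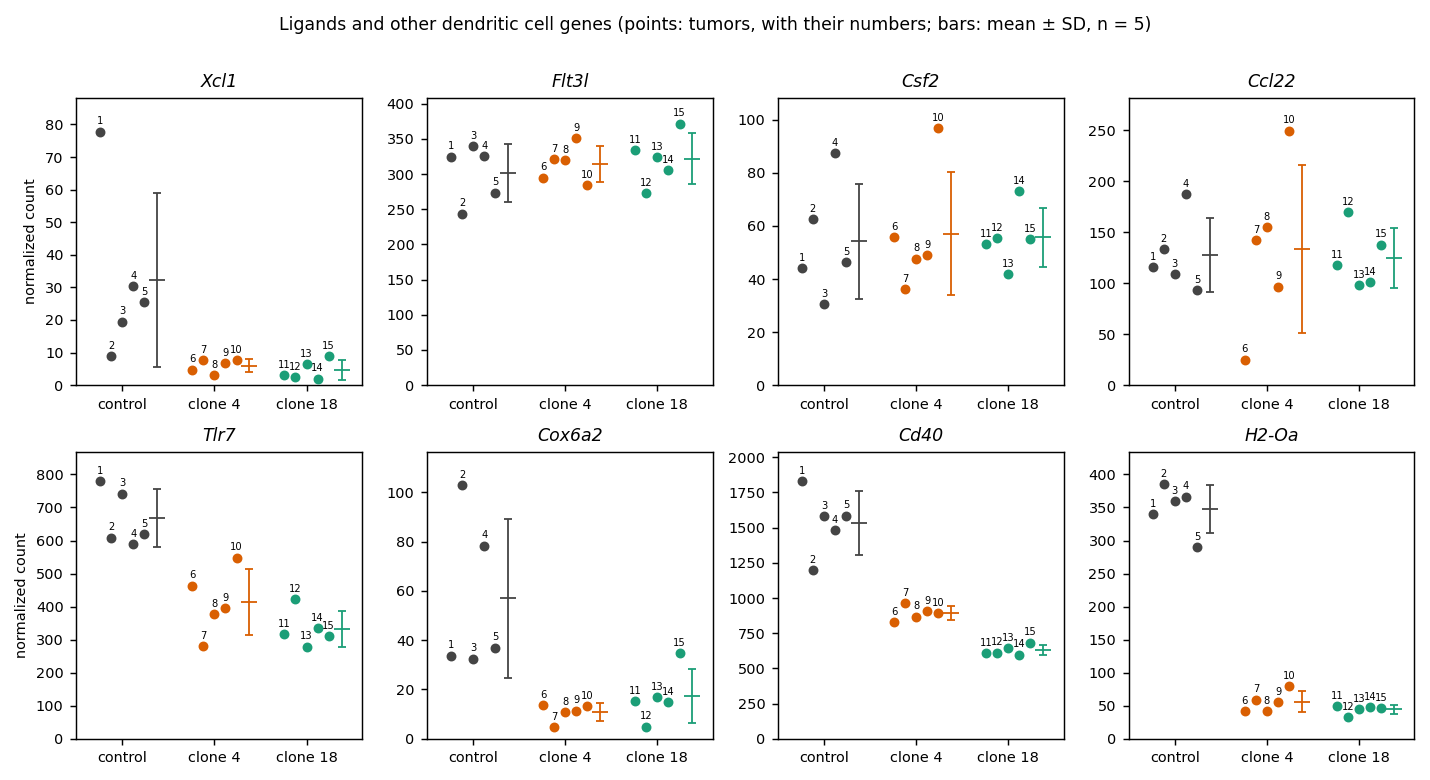
Normalized count per tumor of 3 ligands and growth factors (*Xcl1*, *Flt3l* and *Csf2*), of *Ccl22*, and of *Tlr7*, *Cox6a2*, *Cd40* and *H2-Oa*, with axes that start at 0; points are tumors with their numbers and bars are the mean ± SD of 5 tumors. *Cd40* and *H2-Oa* lie lower in all 10 knockout tumors than in every control tumor, while *Flt3l*, *Csf2* and *Ccl22* overlap between groups.

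Of 13 other transcription factors of dendritic cells 3 fell and 0 rose, with a list median of -0.15. Negative differences numbered 8 of 13. The positive ones, *Nfil3* (0.234), *Irf2* (0.199), *Relb* (0.102), *Bcl11a* (0.053) and *Irf1* (0.024), were not called. *Bcl6*, a repressor needed by cDC1 and germinal center B cells, had a difference of -0.48 (SE 0.10, adjusted p = 0.00204, limma). *Ikzf1*, which encodes Ikaros and is used by lymphoid and plasmacytoid cells, had one of -0.51 (SE 0.14, adjusted p = 0.0123, limma). *Batf2*, an interferon-induced relative of *Batf3*, gave -0.67 (SE 0.21, adjusted p = 0.0273, limma), which was not called without tumor 1 (adjusted p = 0.104) or tumor 5 (adjusted p = 0.079). Of 10 MHC class II genes, with which dendritic cells present antigen to CD4 T cells, all 10 differences were negative with a median of -0.33, and 1 was called, against 3 by edgeR and 4 by DESeq2, and 7 by limma without control tumor 2. The 1 called was *H2-Oa*, a subunit of the peptide-loading modulator H2-O of B cells and dendritic cells, with 290 to 385 in control and 33.2 to 80.2 in the knockout tumors. Its difference was -2.80 (SE 0.17, adjusted p = 1.73e-08, limma). *H2-Ob* was not called (-0.349, adjusted p = 0.504, limma). Among the controls *H2-Oa* was highest in tumor 2 (384.9), where *H2-Aa* (6790.6) and *H2-Ob* (18.5) were lowest.

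Genes of other cells moved beside these, and their counts called lower stand beside 12.9% of all genes. Of 10 leukocyte genes 4 were called lower and 0 higher, with a median of -0.35, close to that of the 10 dendritic cell genes. They included *Ptpn6* (-0.59), *Laptm5* (-0.41) and *Vav1* (-0.40), and the count was 2 without tumor 1, 3 or 5. In the fit of the 10 knockout tumors together, the macrophage, T cell, B cell, monocyte and neutrophil lists held some genes called lower and 0 called higher. Those called lower were 5 of 10 (macrophage), 5 of 12 (T cell), 3 of 7 (B cell), 2 of 6 (monocyte) and 2 of 6 (neutrophil). The macrophage list held 3 without tumor 1, and the T cell list 8 without tumor 2 and 8 by edgeR and by DESeq2. The monocyte list held 1 without tumor 1, 2 or 4, and the neutrophil list 0 without tumor 1 and 1 without tumor 5.

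*Cd79a*, a signaling chain of the B cell receptor, was at 24.4 to 374 in control and at 0 to 5.2 in the knockout tumors, without overlap, with a difference of -5.60 (SE 0.52, adjusted p = 9.79e-07, limma). *Cd79b*, its partner, gave -1.11 (SE 0.29, adjusted p = 0.0107, limma), and *Ighd*, the heavy chain of IgD, gave -1.79 (SE 0.56, adjusted p = 0.0273, limma), which was not called without tumor 1, 3 or 5 (adjusted p 0.064 to 0.0903). Among the controls *Cd79a* was lowest in tumor 1 (24.4) and highest in tumor 2 (374.3). *Cd79b* (95.2 and 41.4) and *Ighd* (34.8 and 4.4) were highest in tumor 1 and lowest in tumor 2. *Ms4a1* (0.115) and *Pax5* (0.206) had positive differences that were not called, and *Pax5* was called higher in clone 4 (0.402, adjusted p = 0.0382, limma). The B cell sums were 766 to 1136 in control, 744 to 1099 in clone 4 and 584 to 790.3 in clone 18, and most of each was *Pax5*, with 529.6 to 1020.6 in each tumor. Of the T cell genes, *Cd3g* fell to 16.1% of its control mean (log2 difference -2.30, adjusted p = 0.0013, limma), *Cd8a* to 18.1% (log2 difference -2.33, adjusted p = 0.0069, limma) and *Trbc2* to 27.3% (log2 difference -1.71, adjusted p = 0.00371, limma). The summed T cell counts were 616 to 2271 in control, 639.7 to 1019 in clone 4 and 582 to 807 in clone 18, and the kinase gene *Lck* alone held 368 to 608 of them. Among macrophage and monocyte genes, the differences were -0.54 for *C1qc*, -0.60 for *Csf1r*, -0.46 for *C1qb*, -0.92 for *Cx3cr1* and -1.15 for *Ly6c2*, the last not called without tumor 1, 2 or 4. Not called were *Cd68* (0.119), *Ccl9* (0.019) and *Plac8* (0.038), with positive differences, while 9 of 10 macrophage and 4 of 6 monocyte differences were negative. In clone 18 *Cd68* was called higher (0.378, adjusted p = 0.018, limma), and 7 macrophage genes were called lower. The summed macrophage counts were 81970 to 108200 in control, 64390 to 80600 in clone 4 and 58350 to 78160 in clone 18. The neutrophil genes called were *Csf3r* (-0.48, not called without tumor 1 or 5) and *Ly6g*, at 0 to 2.3 normalized counts in each tumor. The summed natural killer counts were 62.6 to 446, 72.7 to 289 and 34.0 to 124 in the same order of groups. Of the Langerhans cell and keratinocyte list 3 of 6 genes were in the table, summing to 94.2 to 191 in control, 98.3 to 473 in clone 4 and 79.5 to 142 in clone 18. By limma, 0 genes were called among natural killer, plasma cell, Langerhans, endothelial, fibroblast and skeletal muscle genes. By the unadjusted p these were 0 of 6, 1 of 3, 0 of 3, 0 of 5, 0 of 5 and 2 of 5. DESeq2 called 1 natural killer gene, and edgeR and DESeq2 called 4 skeletal muscle genes each. The muscle genes summed to 73.2 to 154 in control, 51.8 to 1045 in clone 4 and 84.9 to 1529 in clone 18. Of 8 renal epithelial genes 1 rose (*Epcam*) and 1 fell (*Krt18*). *Klra8*, *Tnfrsf17*, *Derl3*, *Krt1*, *Krt10* and *Dsg3* were not in the table. The part of these cells in the levels of *Irf8*, *Xcl1*, *Itgax*, *Ccr7*, *Cd40*, *Cacnb3*, *Nudt17*, *Esam*, *Sirpa*, *Tlr7*, *H2-Oa* and *Cd79a* was not tested.

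**Figure D5:**
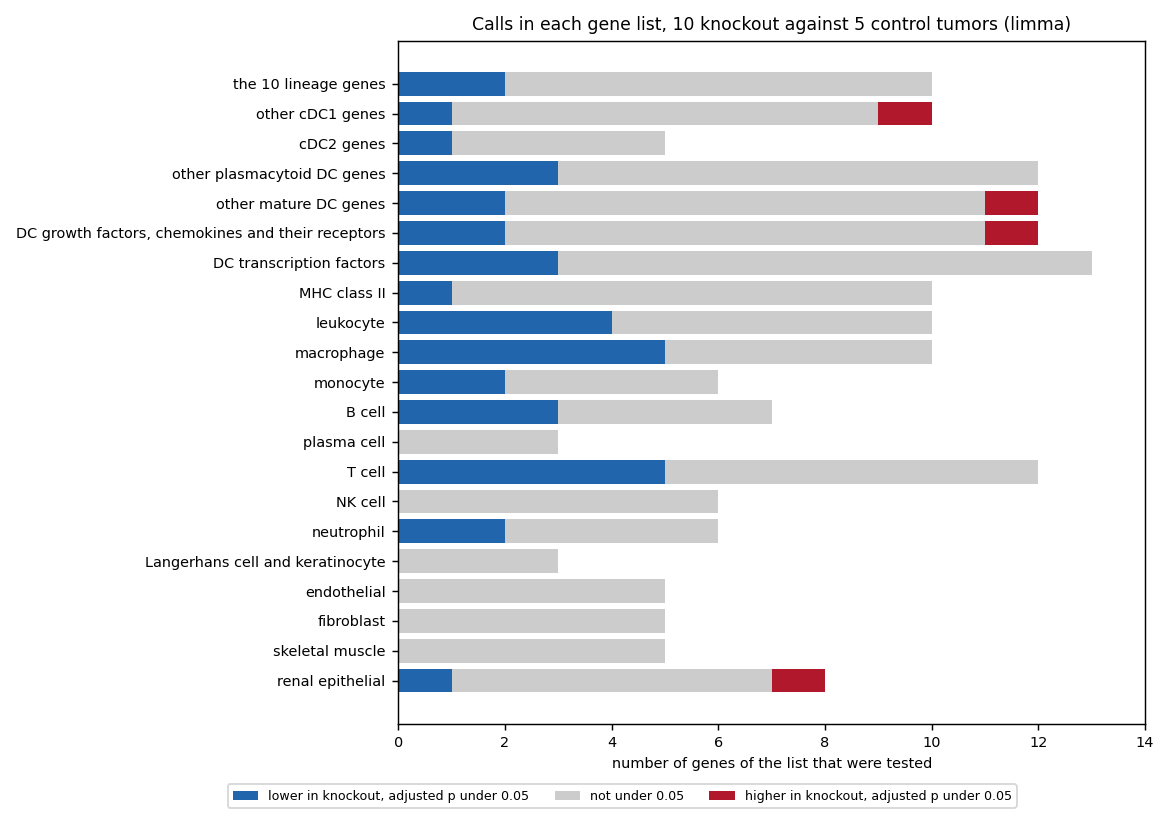
Number of genes in each list called lower, called higher or not called in the 10 knockout tumors against the 5 control tumors (limma, adjusted p under 0.05). The 10 dendritic cell genes hold 2 called lower and 0 called higher, and the macrophage and T cell lists each hold 5 called lower.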

How the data were processed

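RNA of 15 Renca tumors was measured by bulk RNA sequencing. The deposited values are a signal per gene that the authors made by aligning reads to mm10 with TopHat2, counting with HTSeq and dividing by a DESeq size factor, rounded to 0.1; tool versions, annotation and strand setting were not given in the sources used here. In each tumor, values were whole multiples of 1 read (at least 99.98% of those up to 8000, within 0.05), so whole reads could be recovered for count tests. In tumors 8 and 14 the value of 1 read lay so near 1 (0.995 and 1.00) that this check is weaker there. Reads carry no molecular identifiers and give counting error only.

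Genes at 0 in all tumors (29) were dropped. limma 3.58.1 with trend was fitted to log2(normalized count + 1) over 18250 genes, as 10 knockout against 5 control tumors and as 3 groups, and again after subtracting the mean of 10 leukocyte genes. Text names the 10 members, *Pbrm1*, up to 3 called genes per list with the smallest adjusted p and the 3 genes nearest each member. *Flt3l*, *Csf2*, *Krt8*, *Pax8*, *Pax5* and *Lck* were added after their values were seen. So were *Cd209a*, *Esam*, *Sirpa*, *Mgl2*, *Spib*, *Tcf4*, *Irf7*, *Bst2*, *Cd68*, *Ccl9*, *Plac8*, *Ms4a1*, *H2-Aa* and *H2-Ob*. The same holds for *Fscn1*, *Ccl17*, *Il12b*, *Cd83*, *Cd86*, *Socs2*, *Il4i1*, *Samsn1*, *Nfil3*, *Irf2*, *Relb*, *Bcl11a*, *Irf1*, *Rab7b* and *Csf2rb*. The members and lists were chosen with earlier results of these data known. Positions of genes were read from GENCODE M21 (GRCm38) and promoters from RefSeq.

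The alternatives were pseudocounts 0.1 and 5, a mean of at least 10, upper quartile scaling, quantile normalization, limma without trend, a test per gene with unequal variances, edgeR 4.0.16 and DESeq2 1.42.0 on recovered reads, *Ptprc* alone as reference, and each tumor left out. The fits were also run on simulated counts, with the same dispersion for all genes and no difference between the clones. That simulation cannot say how the fits perform for genes that vary as widely within a group as these. They ran in R 4.3.3, the tables in pandas 2.3.3 and numpy 2.4.6 under Python 3.11.15, and the plots in matplotlib 3.10.9.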

Additional observations from a re-analysis of the deposited data

Results flagged for a closer look

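In 4 of 135 groups of 5 tumors, 1 tumor stood far from the other 4 by Dixon's criterion, which chance alone does in about 1 of 20 groups (6.8 of 135 here). None of the 30 groups of the dendritic cell genes was among them. *Ly6c2*, a monocyte gene, was at 125.9 normalized counts in clone 4 tumor 10 against 28.9 to 51.6 in the other clone 4 tumors. *Cd3g*, a T cell receptor subunit, was at 181.0 in control tumor 1 against 18.5 to 62.4 in the other controls, and tumor 1 was also the highest control for 8 of the 10 dendritic cell genes. In clone 18 tumor 15, *Cd8a* was at 26.9 against 5.0 to 11.2, and *Ighd*, a B cell gene, at 11.2 against 0 to 3.0.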

How the results depend on the processing

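No paired analysis was possible because the tumor numbers in the labels do not tie tumors of different groups together. Over 62 single differences and their 1491 values under alternatives, 1342 kept their direction and side of the threshold, 125 lost the call, 21 gained it and 3 changed direction; causes were not tested unless stated.

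Of the 10 dendritic cell genes, 2 were called in knockout against control, and 1 with a pseudocount of 0.1, upper quartile scaling, quantile normalization or limma without trend, 0 with the test of unequal variances, and 1 to 2 with 1 tumor left out. In clone 4 the count was 1, and 0 with unequal variances and 0 to 1 with 1 tumor left out (0 without tumor 1). In clone 18 it was 1, but 2 with a pseudocount of 5, 3 with quantile normalization, edgeR or DESeq2, and 0 to 2 with 1 tumor left out (0 without tumor 1, 2 without tumor 2, 6, 7 or 8). Relative to leukocyte genes it was 1, but 0 without trend, with unequal variances or relative to *Ptprc* alone, 2 with edgeR, 3 with DESeq2, and 0 to 2 with 1 tumor left out. With unequal variances, a test that shares no spread between genes, *Irf8* lost its call in all knockout tumors (adjusted p = 0.0606) and in each clone, and the 1 gene called in clone 18 was *Ccr7* (adjusted p = 0.0178). Beside these counts, 9 alternative fits called 3739 to 4615 of all genes in knockout against control. They called 2008 to 3598 in clone 4, 2816 to 4989 in clone 18 and 1728 to 5592 relative to leukocyte genes. In the same order the main fits called 4040, 3071, 4499 and 5138.

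Over all genes, the unequal variance test called 1728 relative to leukocyte genes, 186 between the clones, 2816 in clone 18 and 2008 in clone 4, and DESeq2 called 1359 between the clones. With 1 tumor left out, 2566 (without tumor 1) to 8088 (without tumor 2) genes were called relative to leukocyte genes. The *Ccr7* difference of clone 4 ran from -0.14 (without tumor 10) to 0.61 (without tumor 6), and was -0.02 without tumor 7. That of *Zbtb46* in all knockout tumors ran from -0.26 to 0.008, the latter without tumor 1. Depth limits *Clec9a*, *Xcl1*, *Siglech*, *Xcr1*, *Flt3* and *Batf3*, which rested on 1 to 144 reads per tumor.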
